A study of Mus musculus with 12 samples.

Results

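Mouse embryonic fibroblasts (MEFs) labelled as lacking all 3 pocket proteins were compared with MEFs labelled as lacking only Rb1. The arrays were chosen by their titles, 3 titled TKO and 3 titled Rb1KO of 12 in the series, and the comparison covered 18193 genes. MEFs are cells grown out of mouse embryos, here harvested untreated during exponential growth. By the labels, the Rb1KO group carries a deletion of Rb1, and the TKO group carries deletions of Rb1, of p107 (gene Rbl1) and of p130 (gene Rbl2). The other arrays were 3 of wild type (WT) MEFs and 3 of TKO MEFs that also carry mutated Ras, given as RasG12D (TKO-Ras), and their levels are given where they help to place a difference. Each array was hybridised with 100 ng of total RNA on the Affymetrix MOE430 2.0 chip, which reads most genes through a few probe sets near the end of the transcript. By their labels the arrays of a group are biological replicates, but whether each stands for its own embryo or culture is left unsaid. The p-values therefore measure the spread between these RNA samples, which may be technical. Strain, embryo age and the deleted parts of the genes are not given in the sources used here and neither is the number of MEF lines behind each group, so that line and genotype cannot be told apart.

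The pocket proteins pRb, p107 and p130 bind E2F transcription factors and hold back genes needed for DNA synthesis and mitosis. In a resting cell p130 is the main partner of the repressive E2F factors within the DREAM complex, while p107 is made as cells enter the cycle. The proteins cover for each other in part, so that fibroblasts without all 3 no longer stop dividing when signals ask them to. By its labels the comparison would ask which transcripts differ once Rbl1 and Rbl2 are missing beside Rb1. Because Rbl2 was as low or lower on the arrays labelled Rb1KO, it cannot show the effect of adding the loss of Rbl2, and TKO and Rb1KO stand below for the labels of the arrays.

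The genes labelled as deleted in TKO MEFs were read first. A probe set outside the deleted part of a gene does not check its label, and no protein was measured. Values are on the log2 scale, on which a step of 1 is a 2-fold change, and a level of 5.13 marks the background, set at the 95th percentile of 44 probe sets for olfactory receptors, which fibroblasts are not known to use. Rbl1 lay at 8.996, 8.32 and 8.89 on the Rb1KO arrays and 4.79, 5.12 and 4.42 on the TKO arrays. The groups did not overlap, every TKO array was at background, and Rbl1 was at least 12.2-fold lower in TKO MEFs (adjusted p = 3.8e-06). Rb1 lay at 7.51, 7.74 and 7.51 on the Rb1KO arrays and 6.97, 7.02 and 7.43 on the TKO arrays, against 8.49, 8.70 and 8.31 on the WT arrays. All 6 values of Rb1 were below those of the WT arrays, and the difference between TKO and Rb1KO MEFs did not pass the test (log2 fold change -0.44 ± 0.14 (SE), adjusted p = 0.095). It passed without TKO replicate 3 (log2 fold change -0.59, adjusted p = 0.034), with array weights (-0.46, adjusted p = 0.027) and when the probe sets of a gene were averaged (-0.38, adjusted p = 0.049).

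Rbl2 did not follow the labels in the same way. It lay at 4.47, 3.80 and 4.27 on the Rb1KO arrays and 5.37, 5.27 and 5.71 on the TKO arrays, and at 7.54, 7.72 and 7.90 on the WT arrays. All 3 Rb1KO arrays were at background although their label names no deletion of Rbl2, and they lay below all 3 TKO arrays, which were slightly above background. The difference of Rbl2 came to at least 1.25-fold (adjusted p = 0.0041). A further probe set of Rbl2 gave a log2 fold change of 0.45 that did not pass (adjusted p = 0.19), with means below background in both groups. The arrays labelled Rb1KO therefore differ from the TKO arrays clearly in Rbl1 transcript and hold little Rbl2 transcript themselves, and what the arrays labelled Rb1KO lack at the DNA level was not tested.

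The arrays were alike in scale. Array medians lay between 5.34 and 5.41, and the correlation over all probe sets was 0.991 to 0.994 between TKO arrays, 0.993 to 0.996 between Rb1KO arrays and 0.970 to 0.979 between an array of one group and one of the other. The probe set with the highest overall mean stood for a gene, and a gene was called at an adjusted p under 0.05 from limma. Of the 18193 genes 1077 (5.92%) were higher and 661 (3.63%) were lower in TKO MEFs, and changes of 2-fold or more numbered 544 higher (2.99%) and 259 lower (1.42%). In either direction 9.55% of all genes were called, the share against which each list's calls are set below. Of the 18193 genes 12352 were above background in either group. Genes at background can hardly be called, so the share among genes above background was higher than 9.55%. A list share a little over 9.55% therefore shows no excess. The gene lists were chosen with earlier results of these data known, so a larger share describes a list and is no independent test of it. The 3 TKO values lay apart from the 3 Rb1KO values for 1737 of the 1738 genes called. A call at this threshold nearly requires such a separation. The lack of overlap therefore adds no support to a call, here or for the single genes below. The median log2 fold change over all genes was -0.03. Further probe sets above background gave smaller differences of the same direction that did not pass for Trp53inp1 (0.61), Dnmt3a (0.37), Erg (0.65), Col5a1 (0.55 and 0.79), E2f5 (-0.33) and Igfbp7 (-0.38 and -1.01), genes described below. WT replicate 3 stood apart from the other WT arrays and takes part in the estimate of the spread, and without it the lower genes numbered 1068. The lower genes numbered 401 without TKO replicate 2, 428 without Rb1KO replicate 1 and 433 without Rb1KO replicate 2, and the higher genes numbered 714 without Rb1KO replicate 3.

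**Figure D1:**
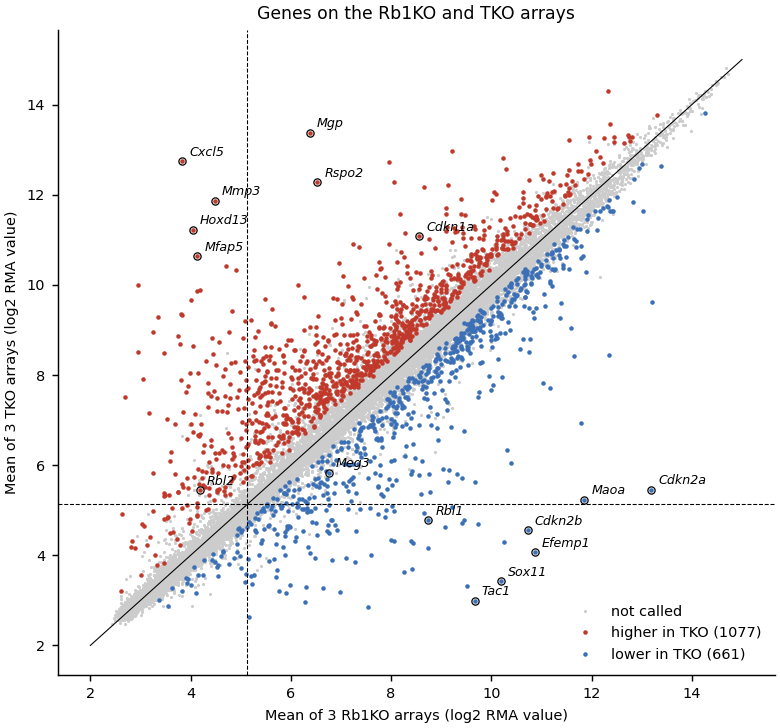
Each point is 1 gene, with its mean over the 3 Rb1KO arrays on the x axis and its mean over the 3 TKO arrays on the y axis, both as log2 RMA values. Red points are the 1077 genes called higher and blue points the 661 called lower in TKO MEFs, dashed lines mark the background level of 5.13, the solid line marks equal values, and Cxcl5 and Cdkn2a lie farthest from it on either side.

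The genes that E2F factors and the DREAM complex act on were measured next, as the best-known targets of the pocket proteins. Promoters of DNA replication genes often hold an E2F site, searched here as TTTCCCGC or TTTGGCGC on both strands, and promoters of mitotic genes often hold the CHR element, searched as TTTGAA on both strands. Windows of 250 bases before to 50 after the start of transcription, taken from RefSeq on GRCm38.p6, were at hand for 14452 of the 18193 genes. The E2F letters stood in 11 of 36 windowed DNA replication genes (30.6%), against 2.77% of all measured genes and 1.56% of all 32851 windows. The CHR letters stood in 22 of 30 windowed mitosis genes (73.3%), against 15.7% of measured genes and 17.9% of windows. Genes called higher held the E2F letters in 2.77% and the CHR letters in 13.3%, and genes called lower in 3.15% and 14.8%. A match is a description of the letters, not a site shown to be bound. Windows of 2 replication genes and 1 mitotic gene are shown with the matched letters in capitals: Mcm3 at chr1:20820263-20820562 on the minus strand, Cdc6 at chr11:98907901-98908200 on the plus strand and Ccnb2 at chr9:70421505-70421804 on the minus strand.
Mcm3: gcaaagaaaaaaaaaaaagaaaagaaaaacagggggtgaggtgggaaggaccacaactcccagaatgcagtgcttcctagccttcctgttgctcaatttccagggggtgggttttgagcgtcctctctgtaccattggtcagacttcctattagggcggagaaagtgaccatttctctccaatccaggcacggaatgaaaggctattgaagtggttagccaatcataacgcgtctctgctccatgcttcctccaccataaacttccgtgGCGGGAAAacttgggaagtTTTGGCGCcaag
Cdc6: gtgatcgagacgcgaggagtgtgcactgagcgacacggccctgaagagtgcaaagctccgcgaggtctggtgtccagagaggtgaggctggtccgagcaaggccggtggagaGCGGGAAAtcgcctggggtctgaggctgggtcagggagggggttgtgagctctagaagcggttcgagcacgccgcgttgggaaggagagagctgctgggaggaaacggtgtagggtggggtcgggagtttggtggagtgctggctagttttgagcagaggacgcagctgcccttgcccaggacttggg
Ccnb2: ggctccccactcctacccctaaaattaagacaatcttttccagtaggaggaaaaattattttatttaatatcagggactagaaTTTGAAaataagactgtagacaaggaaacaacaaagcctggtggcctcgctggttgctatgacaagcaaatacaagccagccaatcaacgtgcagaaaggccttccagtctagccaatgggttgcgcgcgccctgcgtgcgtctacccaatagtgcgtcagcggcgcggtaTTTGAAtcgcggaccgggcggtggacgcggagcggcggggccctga

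Most DNA replication genes differed little between the groups. Of 44 measured members 1 was called higher and 2 lower (6.82%, against 9.55% of all genes), and the median log2 fold change was -0.05, with quartiles at -0.15 and 0.08. Mcm3, a subunit of the replicative helicase whose window is shown above, lay at 11.19, 11.15 and 11.19 on the Rb1KO arrays and 11.06, 11.22 and 11.12 on the TKO arrays, and Cdc6, which loads that helicase, lay at 10.05, 9.85 and 10.11 on the Rb1KO arrays and 9.97, 9.81 and 9.94 on the TKO arrays. The groups overlapped for both genes, with log2 fold changes of -0.04 (95% interval -0.34 to 0.26) and -0.10 (95% interval -0.57 to 0.37). All 6 values stood above the WT arrays, where Mcm3 lay at 9.26, 8.94 and 8.67 and Cdc6 at 7.42, 7.31 and 6.42.

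Each of the 3 calls among replication genes rested on small differences. Dut, which removes dUTP, was higher by a log2 fold change of 0.84 ± 0.19 (SE), adjusted p = 0.019, and the call was lost without Rb1KO replicate 2 (adjusted p = 0.065), without Rb1KO replicate 3 (0.067), without TKO replicate 1 (0.051) and without TKO replicate 2 (0.079). Pold2, a subunit of DNA polymerase delta, had a log2 fold change of -0.73 ± 0.15 (SE), adjusted p = 0.011, and the call was lost without Rb1KO replicate 1 (adjusted p = 0.053) and without TKO replicate 2 (0.054). Ung, which removes uracil from DNA, had a log2 fold change of -0.55 ± 0.13 (SE), adjusted p = 0.025, and the call was lost without Rb1KO replicate 1 (adjusted p = 0.087), without Rb1KO replicate 3 (0.092), without TKO replicate 1 (0.083) and without TKO replicate 3 (0.077). No gene of the list changed by 2-fold.

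Mitosis genes showed a like picture. Of 35 members 1 was called higher and 1 lower (5.71%), with a median of -0.12, and the count of lower members was 3 without WT replicate 3 and 5 with only the 6 arrays compared in the fit. Pttg1, the securin that guards against early separation of chromatids, lay at 13.13, 12.84 and 13.12 on the Rb1KO arrays and 11.67, 11.33 and 11.92 on the TKO arrays. Every TKO value was below every Rb1KO value, and Pttg1 fell by 1.39 on the log2 scale (adjusted p = 5.6e-04). Ccnb2, a B-type cyclin, was higher by 0.85 ± 0.19 (SE), adjusted p = 0.017, and that call was lost without Rb1KO replicate 2 (adjusted p = 0.054), without TKO replicate 1 (0.06) and without TKO replicate 3 (0.069). Ube2c, a ubiquitin carrier of the anaphase complex, lay at 12.80, 12.71 and 12.66 on the Rb1KO arrays and 12.58, 12.20 and 12.38 on the TKO arrays and did not pass (log2 fold change -0.34 ± 0.18 (SE), adjusted p = 0.33).

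Among the factors themselves, 1 of 10 E2F and DP genes and 0 of 8 DREAM and MuvB genes passed the test, which at 9.55% of all genes is close to the share elsewhere and no result about these factors. E2f5, a repressive E2F that pairs with p130, lay at 8.91, 9.54 and 9.07 on the Rb1KO arrays and 8.56, 8.33 and 7.99 on the TKO arrays. Its groups lay apart and it fell by 0.88 on the log2 scale (adjusted p = 0.0093). Tfdp1, the DP partner of E2F factors, did not pass at 0.05, and neither did E2f7 at 0.33 or Rbbp4, a histone-binding subunit of MuvB, at -0.10. Of 20 DNA repair and checkpoint genes 1 was called (5%), Chek2, a checkpoint kinase, with a log2 fold change of 0.71 ± 0.15 (SE), adjusted p = 0.014. Its call was lost without Rb1KO replicate 2 (adjusted p = 0.063) and without TKO replicate 3 (0.06). Of the 14 G1 and S cyclins and kinases 1 was called (7.14%), Ccnd2, a D-type cyclin that works with Cdk4 and Cdk6. Neither of these shares exceeds the 9.55% of all genes, so the counts are no result about the lists. Ccnd2 lay at 8.69, 6.94 and 7.69 on the Rb1KO arrays and 10.08, 10.57 and 10.42 on the TKO arrays, and its log2 fold change was 2.58 ± 0.36 (SE), adjusted p = 0.0011, with no overlap. The WT arrays lay above both groups at 13.49, 13.57 and 12.78. Cdk4 did not pass, at -0.18, nor did Cks1b, a small partner of Cdk kinases, at -0.16.

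**Figure D2:**
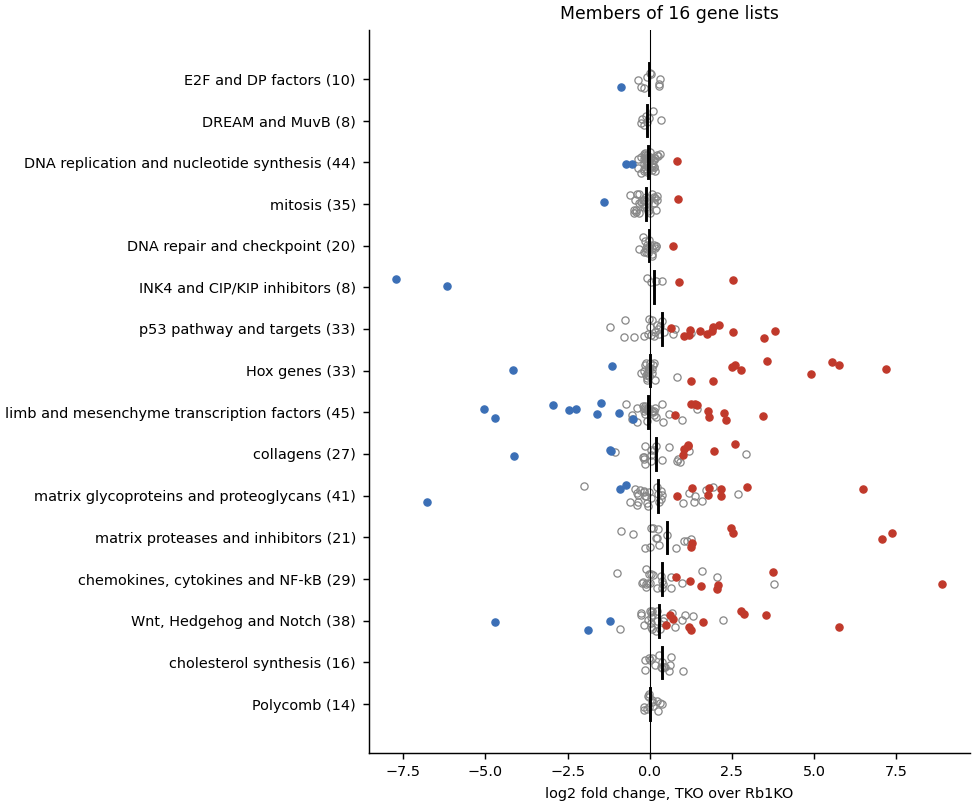
Each point is 1 gene of a list, at its log2 fold change of TKO over Rb1KO MEFs on the x axis, with the number of measured members beside each list name and a black bar at the list's median. Filled red points were called higher, filled blue points lower and open points were not called; the medians of the E2F, DREAM, replication, mitosis, repair and Polycomb lists lie from -0.12 to 0.02, and those of the cholesterol list, with 0 calls, and the p53 list, with 12, at 0.37 and 0.39.

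The steepest fall was at the INK4 locus. It encodes p16 and p19Arf from Cdkn2a and p15 from Cdkn2b, inhibitors that stop D-type cyclin kinases or, for p19Arf, free p53 from Mdm2. Cdkn2a lay at 12.99, 13.32 and 13.25 on the Rb1KO arrays and 6.203, 6.10 and 4.07 on the TKO arrays. No other called gene above background in its higher group fell further, with a log2 fold change of -7.73 ± 0.55 (SE), adjusted p = 7.7e-06, and TKO replicate 3 was at background while TKO replicates 1 and 2 were slightly above it. Cdkn2b lay at 11.25, 9.95 and 10.96 on the Rb1KO arrays and 4.75, 4.14 and 4.79 on the TKO arrays, at background on every TKO array and at least 48.1-fold lower (adjusted p = 3.7e-07). Their neighbour Mtap, an enzyme that salvages adenine and methionine, lay at 12.01, 11.98 and 11.90 on the Rb1KO arrays and 12.33, 12.22 and 12.44 on the TKO arrays and was no lower in TKO MEFs (log2 fold change 0.37 ± 0.13 (SE), adjusted p = 0.14). Both INK4 genes were high on the WT arrays, with Cdkn2a at 12.08, 11.20 and 12.98 and Cdkn2b at 10.49, 10.58 and 10.57, and near or below background on the TKO-Ras arrays, at 4.30, 3.92 and 3.27 and 3.87, 4.21 and 4.48. The arrays read RNA alone, and the state of the DNA at the locus was not tested.

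Of the other inhibitors in the list of 8, Cdkn1a rose and Cdkn2c was called higher. Cdkn1a, which encodes p21, an inhibitor of Cdk2 and a direct target of p53, lay at 8.27, 8.496 and 8.91 on the Rb1KO arrays and 10.94, 11.27 and 11.04 on the TKO arrays. The groups did not overlap (log2 fold change 2.52 ± 0.42 (SE), adjusted p = 0.0037), and the WT arrays at 11.52, 11.84 and 9.70 spanned the TKO values. Cdkn2c, which encodes p18, had a log2 fold change of 0.88 ± 0.21 (SE), adjusted p = 0.027, and the call was lost without Rb1KO replicate 1 (adjusted p = 0.074), without Rb1KO replicate 2 (0.094), without Rb1KO replicate 3 (0.072), without TKO replicate 2 (0.087) and without TKO replicate 3 (0.1).

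Some targets of p53 rose beside Cdkn1a. p53 is a transcription factor that is stabilised after DNA damage or oncogene signals, and its targets arrest the cycle or start cell death. Of 33 measured members of the pathway 12 were called higher and 0 lower (36.4%, against 9.55% of all genes), 11 of them by 2-fold or more. The median was 0.39, against -0.03 over all genes. Eda2r, a death receptor of the TNF receptor family, lay at 4.08, 3.91 and 3.85 on the Rb1KO arrays and 7.69, 7.72 and 7.88 on the TKO arrays. Every Rb1KO array was at background, so that Eda2r was at least 6.21-fold higher in TKO MEFs (adjusted p = 0.0017). Trp53inp1, which enhances p53 activity, lay at 7.51, 6.36 and 8.18 on the Rb1KO arrays and 10.24, 10.61 and 11.65 on the TKO arrays, and its log2 fold change was 3.49 ± 0.42 (SE), adjusted p = 4.1e-04. Perp, a membrane protein, lay at 9.36, 8.68 and 9.26 on the Rb1KO arrays and 11.03, 11.13 and 11.42 on the TKO arrays, and its log2 fold change was 2.10 ± 0.40 (SE), adjusted p = 0.0082. For neither gene did the groups overlap. Zmat3, an RNA-binding target, lay at 8.10, 8.06 and 7.44 on the Rb1KO arrays and 9.52, 9.70 and 10.04 on the TKO arrays, and Phlda3, an inhibitor of Akt, at 9.14, 9.30 and 9.21 on the Rb1KO arrays and 10.40, 10.54 and 10.29 on the TKO arrays. Both rose, by log2 fold changes of 1.88 ± 0.30 (adjusted p = 0.0027) and 1.19 ± 0.18 (adjusted p = 0.0018).

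The other 6 calls of the pathway were Ccng1 at 1.92, Ddit4 at 1.75, Btg2 at 1.53, Sesn2 at 1.24, Fas at 1.03 and Apaf1 at 0.65 on the log2 scale. They code for a cyclin-like regulator of Mdm2, a brake on mTOR signalling, an antiproliferative cofactor, a stress sensor, a death receptor and the scaffold of the apoptosome. Each of these calls was lost in at least 1 of the fits that left out 1 of the 6 arrays, while Eda2r, Trp53inp1, Cdkn1a, Perp, Zmat3 and Phlda3 were called in all 6. The count of higher members was 7 without TKO replicate 2, 6 without TKO replicate 3, 9 without Rb1KO replicate 1, 7 without Rb1KO replicate 2 and 8 without Rb1KO replicate 3. Plk2, a stress kinase in the list, was at -0.74 (adjusted p = 0.13) and Ei24, an autophagy protein, at 0.31 (adjusted p = 0.13). With only the 6 arrays compared in the fit, 14 members were called higher and 4 lower.

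On the WT arrays Eda2r lay at 8.34, 8.78 and 5.78, Perp at 11.37, 11.25 and 9.56 and Zmat3 at 10.16, 10.45 and 9.10. WT replicate 3 had the lowest level of each, and all 3 WT values of each gene stood above all 3 Rb1KO values. The p53 response element, 2 copies of its unit with at most 2 mismatches over both and a gap of up to 13 bases on either strand, stood in 2 of 25 windowed members of the list (8%), against 2.2% of measured genes and 2.12% of windows. The 2 members were Cdkn1a and Sesn1, and Sesn1 was not called. Of the 12 members called higher 9 had windows, and 1 of the 9 held the element. Over all genes the element stood in 2.53% of those called higher and 3.15% of those called lower. One of 2 Cdkn1a windows held such a site, at chr17:29090729-29091028 on the plus strand, and it is shown with the site of no gap in capitals because Cdkn1a heads the target list.
Cdkn1a: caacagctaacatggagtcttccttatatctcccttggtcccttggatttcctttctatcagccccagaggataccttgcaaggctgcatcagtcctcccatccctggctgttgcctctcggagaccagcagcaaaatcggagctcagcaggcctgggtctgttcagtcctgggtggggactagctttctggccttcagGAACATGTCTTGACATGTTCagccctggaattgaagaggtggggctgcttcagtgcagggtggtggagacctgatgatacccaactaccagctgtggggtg

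**Figure D3:**
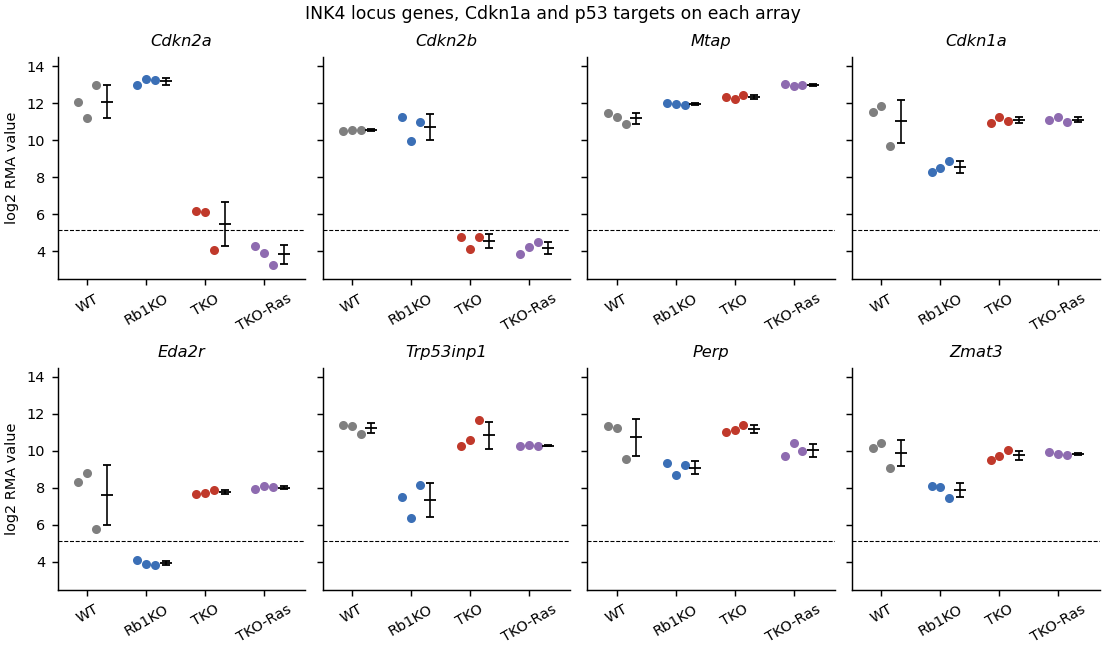
Each panel shows 1 gene, with the 3 arrays of each group as points, the mean and SD beside them, and the log2 RMA value on the y axis; the dashed line is the background level of 5.13. Cdkn2a and Cdkn2b are near or at background in TKO and TKO-Ras MEFs while Mtap is not, and Cdkn1a, Eda2r, Trp53inp1, Perp and Zmat3 are lower on every Rb1KO array than on every TKO array.

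Genes that record position along the body and limb also set the groups apart. Hox genes lie in 4 clusters and are switched on in order along each, and fibroblasts keep the Hox code of the place they came from. Of 33 measured Hox genes 10 were called higher and 2 lower in TKO MEFs (36.4%, against 9.55% of all genes). All 12 differed by 2-fold or more, and the 12 calls were made with each of the 6 arrays left out in turn. All 10 higher members were in the 5′ parts of the Hoxa and Hoxd clusters, which pattern the limb. Hoxd13 lay at 3.91, 3.78 and 4.45 on the Rb1KO arrays and 11.31, 11.20 and 11.16 on the TKO arrays, which was at least 68.1-fold higher (adjusted p = 2.5e-09). Hoxd10 lay at 3.47, 4.09 and 3.81 on the Rb1KO arrays and 8.81, 8.45 and 8.81 on the TKO arrays, at least 11.8-fold higher (adjusted p = 4.4e-08). Every Rb1KO value of both genes was at background, and the WT means were there as well.

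The remaining Hoxd calls were Hoxd12, at least 2.93-fold higher, Hoxd11, at least 4.62-fold higher, Hoxd9 at a log2 fold change of 1.92 and Hoxd8 at 3.56. In the Hoxa cluster Hoxa9 lay at 4.08, 4.09 and 4.18 on the Rb1KO arrays and 9.98, 9.56 and 10.06 on the TKO arrays, at least 26.6-fold higher (adjusted p = 3.7e-07). Hoxa10 lay at 4.15, 3.28 and 3.99 on the Rb1KO arrays and 9.39, 9.21 and 9.43 on the TKO arrays, at least 18.5-fold higher, while a further probe set of the gene was below background in both groups with a log2 fold change of 0.34. Hoxa11 rose by 2.77 ± 0.21 on the log2 scale, and Hoxa13 was at least 1.61-fold higher. Running against these, Hoxa2, at the other end of its cluster, lay at 8.75, 7.38 and 9.17 on the Rb1KO arrays and 4.44, 4.52 and 3.88 on the TKO arrays and was at least 9.87-fold lower (adjusted p = 0.0022). Hoxb9 lay at 6.47, 6.29 and 6.196 on the Rb1KO arrays and 5.23, 5.09 and 5.16 on the TKO arrays and fell by 1.16 on the log2 scale (adjusted p = 3.5e-04). None of the 7 measured Hoxc genes was called.

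**Figure D4:**
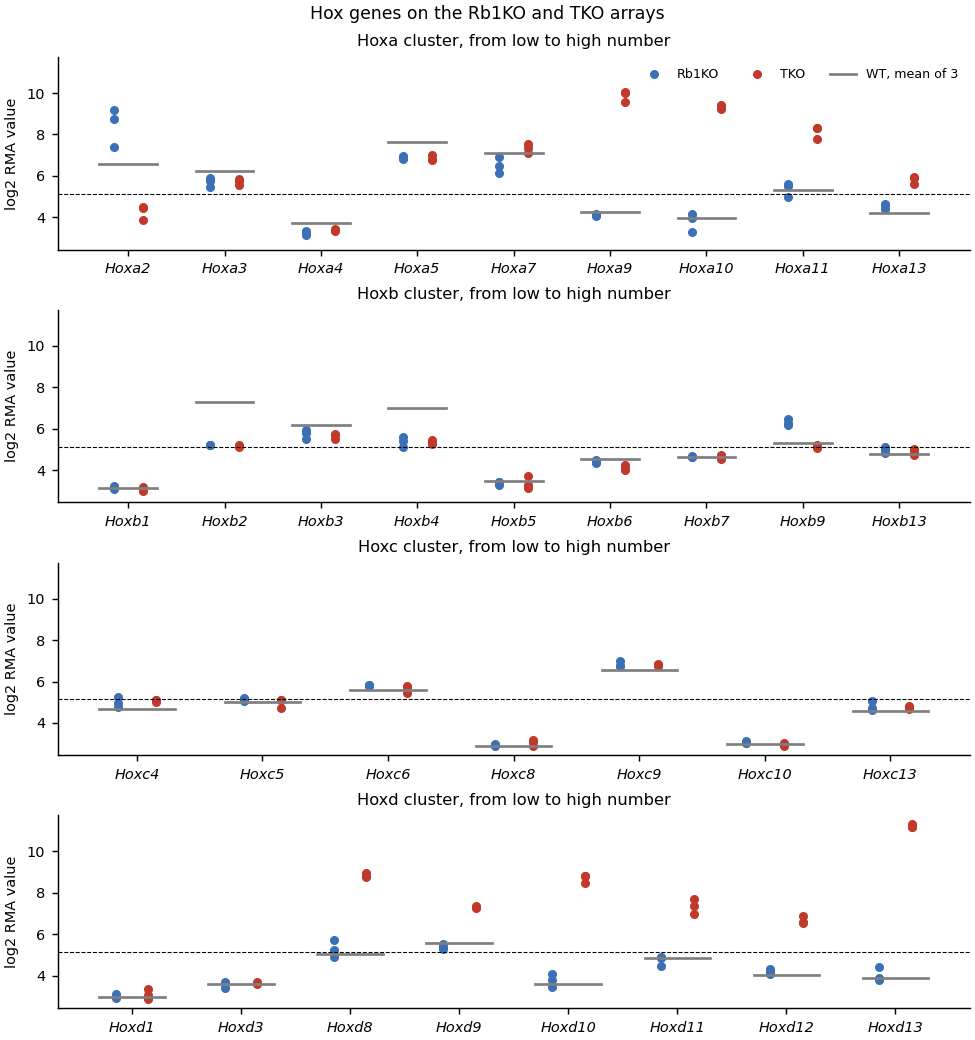
The 4 panels show the Hox clusters with genes in order of number on the x axis and the log2 RMA value on the y axis, with 3 Rb1KO arrays in blue, 3 TKO arrays in red, the WT mean as a grey bar and the background level of 5.13 as a dashed line. TKO values leave the Rb1KO values from Hoxd8 to Hoxd13 and from Hoxa9 to Hoxa13 upward and at Hoxa2 downward, while the Hoxc genes overlap or nearly so.

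Other transcription factors of limb and mesenchyme moved both ways. Of 45 measured members 9 were called higher and 9 lower (40%, against 9.55% of all genes). Pitx1, which gives the hindlimb its identity, lay at 4.98, 4.88 and 4.57 on the Rb1KO arrays and 8.28, 8.34 and 8.17 on the TKO arrays. All Rb1KO and WT means were at background, and Pitx1 was at least 8.74-fold higher in TKO MEFs (adjusted p = 4.4e-08). Tbx15, a T-box factor of skin and limb mesenchyme, rose by 1.78 ± 0.12, Foxf1, a forkhead factor of visceral mesenchyme, by 2.33 ± 0.21 (0.15 on a further probe set, not called), and Foxp1, a further forkhead factor, by 1.25 ± 0.19 on the log2 scale.

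Among the lower members, Shox2, which shapes the upper limb bones, lay at 9.64, 9.65 and 9.91 on the Rb1KO arrays and 4.43, 4.60 and 5.04 on the TKO arrays. Dlx5, a factor of craniofacial and bone development, lay at 9.73, 8.85 and 9.67 on the Rb1KO arrays and 4.56, 4.71 and 4.90 on the TKO arrays. Both were at background on every TKO array, at least 24.2-fold and 19.5-fold lower. Barx1, a factor of jaw and stomach mesenchyme, lay at 8.31, 7.65 and 8.10 on the Rb1KO arrays and 5.66, 5.49 and 5.53 on the TKO arrays, and Meis1, a partner of Hox proteins in the proximal limb, at 8.93, 8.34 and 8.97 on the Rb1KO arrays and 5.40, 5.69 and 6.35 on the TKO arrays. Neither overlapped between groups, and they fell by 2.46 (adjusted p = 4.4e-06) and 2.93 (adjusted p = 4.7e-05) on the log2 scale. Meis2, Twist2 and Six2 were also lower, at -2.24, -0.94 and -0.52. On the WT arrays Shox2 lay at 9.69, 6.60 and 11.24 and Dlx5 at 5.91, 5.47 and 5.90. The higher members numbered 6 without TKO replicate 3 and 6 without each of the 3 Rb1KO arrays in turn. The text of the labels gives no body region for the cells of either group, so that origin and genotype cannot be told apart.

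Genes of the extracellular matrix were in part higher in TKO MEFs. Of 27 collagens 6 were called higher and 3 lower (33.3%, against 9.55% of all genes). Col3a1, a fibrillar collagen of loose connective tissue, lay at 12.50, 12.05 and 12.45 on the Rb1KO arrays and 14.22, 14.37 and 14.32 on the TKO arrays, and Col1a1, the main chain of bone and skin collagen, at 10.56, 10.49 and 10.64 on the Rb1KO arrays and 11.68, 11.72 and 11.81 on the TKO arrays. Both rose without overlap, by 1.97 ± 0.26 (adjusted p = 8.0e-04) and 1.18 ± 0.19 (adjusted p = 0.0025). Col18a1, a basement membrane collagen, rose by 2.60 ± 0.30, and Col5a1 and Col5a2, which seed fibrils, by 1.05 ± 0.12 and 0.998 ± 0.10. The WT mean of Col3a1 was 13.68, between the Rb1KO and TKO levels, and that of Col5a2 was 14.34, above both. Col4a5, a chain of basement membrane collagen, lay at 9.17, 8.88 and 9.59 on the Rb1KO arrays and 5.21, 5.57 and 4.44 on the TKO arrays and fell by 4.14 on the log2 scale (adjusted p = 4.7e-06). Col4a1, the more common chain of that family, did not pass at 0.18. Without WT replicate 3 the higher collagens numbered 10.

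Of 41 matrix glycoproteins and proteoglycans 8 were called higher and 3 lower (26.8%, against 9.55% of all genes). Mfap5, a microfibril protein, lay at 4.33, 4.17 and 3.91 on the Rb1KO arrays and 10.38, 10.71 and 10.83 on the TKO arrays, at background on every Rb1KO array and at least 45.5-fold higher (adjusted p = 4.0e-05). Loxl1, which cross-links elastin, lay at 9.29, 8.69 and 9.34 on the Rb1KO arrays and 11.22, 11.54 and 11.08 on the TKO arrays, and its log2 fold change was 2.17 ± 0.22 (SE), adjusted p = 1.2e-04. Both genes separated the groups fully. Ogn, a small proteoglycan, rose by 2.95 ± 0.55, Fbln1, an elastic fibre protein, by 2.18 ± 0.34 (-0.06 on a further probe set, not called) and Emilin1, a further elastic fibre protein, by 1.79 ± 0.30. Efemp1, a fibulin, lay at 10.99, 10.38 and 11.23 on the Rb1KO arrays and 4.56, 3.75 and 3.91 on the TKO arrays and was at least 53.1-fold lower in TKO MEFs (adjusted p = 2.5e-06). Nid1, which ties laminin to collagen in the basement membrane, fell by 0.90 (adjusted p = 0.011). Lox and Bgn, among the most abundant members, did not pass, at 0.22 and 0.25. Without WT replicate 3 the higher members numbered 12.

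Proteases of the matrix held some of the steepest rises. Of 21 proteases and inhibitors 6 were called higher and 0 lower (28.6%, against 9.55% of all genes), with a median of 0.53. Mmp3, or stromelysin, lay at 4.41, 4.75 and 4.29 on the Rb1KO arrays and 10.21, 12.86 and 12.54 on the TKO arrays. Mmp13, a collagenase, lay at 3.06, 2.96 and 2.81 on the Rb1KO arrays and 8.08, 10.70 and 11.22 on the TKO arrays. TKO replicate 1 was the lowest TKO array for both, yet it lay far above every Rb1KO array, all of which were at background. Mmp3 was at least 107-fold and Mmp13 at least 29.2-fold higher (adjusted p = 1.4e-05 and 9.5e-05). Mmp10, a neighbour of both in the genome, rose by 1.301 ± 0.22, and Mmp23 by 2.48 ± 0.21. Mmp14, which is anchored in the membrane and activates other proteases, did not pass at 1.03 (adjusted p = 0.07), and it passed without WT replicate 3 (adjusted p = 3.1e-04). The count of higher members was 4 without TKO replicate 3.

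Secreted signals showed the largest single rise. Of 29 chemokines, cytokines and NF-kB genes 7 were called higher and 0 lower (24.1%, against 9.55% of all genes). Cxcl5, a chemokine that draws neutrophils, lay at 4.27, 4.02 and 3.21 on the Rb1KO arrays and 12.13, 13.14 and 12.95 on the TKO arrays, at least 195-fold higher in TKO MEFs (adjusted p = 8.1e-07). Its neighbour Cxcl1, which acts on the same receptor, lay at 10.02, 8.60 and 9.03 on the Rb1KO arrays and 12.05, 13.52 and 13.34 on the TKO arrays, and its log2 fold change was 3.75 ± 0.42 (SE), adjusted p = 2.6e-04. The groups lay apart for both, and TKO-Ras MEFs had less of each than TKO MEFs, at 5.72, 7.02 and 6.68 and 7.75, 8.43 and 8.47. Cxcl5 and Cxcl1 were the 2 members called with each of the 6 arrays left out in turn. The count was 3 without TKO replicate 2, 3 without TKO replicate 3, 3 without Rb1KO replicate 2 and 2 without Rb1KO replicate 3.

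Wnt, Hedgehog and Notch genes held 10 higher and 3 lower members of 38 (34.2%, against 9.55% of all genes). Rspo2, which amplifies Wnt signals at the receptor, lay at 6.67, 6.59 and 6.30 on the Rb1KO arrays and 11.81, 12.54 and 12.50 on the TKO arrays, and its log2 fold change was 5.76 ± 0.23 (SE), adjusted p = 1.1e-07. A further probe set of Rspo2 above background was at 0.14 and not called (adjusted p = 0.73). The WT mean of Rspo2 was 12.06, close to the TKO level. Wnt5a, a Wnt that signals without beta-catenin, lay at 7.63, 8.87 and 8.74 on the Rb1KO arrays and 3.66, 4.06 and 3.36 on the TKO arrays, at background on every TKO array and at least 9.7-fold lower (adjusted p = 5.3e-06). Neither gene overlapped between groups. Wnt10a rose by 3.55 ± 0.55, Wnt16 by 2.78 ± 0.46, Wnt10b by 1.27 ± 0.16 and Dkk3, a relative of the Wnt antagonists, by 2.86 ± 0.52. Wnt4 fell by 1.21 (adjusted p = 0.005), and Hhip, which binds Hedgehog proteins, was at least 1.68-fold lower. The higher members numbered 5 without TKO replicate 2, 6 without Rb1KO replicate 1 and 5 without Rb1KO replicate 2.

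Other growth signals held calls at shares from near that of all genes (9.55%) to above it. Most members of these lists were above background, so a share a little over 9.55% is no result about them. Of 31 TGF-beta, BMP and myofibroblast genes 3 (9.68%) were called higher, among them Bmp2, a bone morphogenetic protein, which was at least 4.43-fold higher (adjusted p = 0.0011), and Tgfb1 at 1.33 ± 0.26. Of 15 genes of the insulin-like growth factor axis 3 were called higher and 1 lower (26.7%). Igfbp6, which holds IGF2 away from its receptor, lay at 7.41, 6.98 and 6.99 on the Rb1KO arrays and 10.15, 9.49 and 10.26 on the TKO arrays, and Igfbp7, a secreted relative, at 11.41, 11.86 and 11.52 on the Rb1KO arrays and 9.18, 8.32 and 9.63 on the TKO arrays. Both separated the groups, with log2 fold changes of 2.84 ± 0.23 and -2.55 ± 0.42, and Irs1, the adaptor of the insulin receptor, rose by 2.01 ± 0.40. Of 33 growth factors and receptor kinases 3 were called higher and 1 lower (12.1%), led by Kitl, the ligand of Kit, at 2.55 ± 0.21. Of 25 genes of the Ras and ERK feedback and immediate early group 2 were called higher and 2 lower (16%), and Spry2, a feedback inhibitor of receptor kinases, fell by 1.66 (adjusted p = 0.006).

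Imprinted genes and DNA methylation enzymes were measured because the study is about Meg3, a noncoding RNA from an imprinted cluster, Dlk1-Dio3. Meg3 lay at 6.36, 7.13 and 6.78 on the Rb1KO arrays and 5.56, 5.93 and 6.01 on the TKO arrays, against 12.83, 12.94 and 12.75 on the WT arrays. The Rb1KO and TKO values lay apart, both groups were far below WT, and Meg3 was lower in TKO MEFs by a log2 fold change of -0.92 ± 0.21 (SE), adjusted p = 0.019. The call was lost without Rb1KO replicate 2 (adjusted p = 0.075), without Rb1KO replicate 3 (0.066) and without TKO replicate 1 (0.074), and the mean of its 11 probe sets gave -0.45 (adjusted p = 0.098). Dlk1, the protein-coding gene of the region, lay at 5.75, 7.30 and 5.96 on the Rb1KO arrays and 5.69, 5.18 and 4.71 on the TKO arrays and did not pass (log2 fold change -1.14 ± 0.36 (SE), adjusted p = 0.088).

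Of 11 DNA methylation enzymes 1 was called (9.09%, against 9.55% of all genes), a count that is no result about these enzymes. It was Dnmt3a, which sets new methyl marks. Dnmt3a lay at 5.97, 5.69 and 5.83 on the Rb1KO arrays and 7.49, 7.88 and 8.19 on the TKO arrays, and its log2 fold change was 2.02 ± 0.23 (SE), adjusted p = 2.5e-04, with the WT arrays at 7.89, 8.10 and 8.67. Dnmt1, which copies methylation at replication, lay at 11.40, 11.22 and 11.46 on the Rb1KO arrays and 10.87, 11.08 and 11.22 on the TKO arrays and did not pass (log2 fold change -0.30 ± 0.12 (SE), adjusted p = 0.17). Of 27 other imprinted genes 2 were called higher and 2 lower (14.8%, against 9.55% of all genes). Plagl1, an imprinted zinc finger factor, lay at 3.11, 3.56 and 3.08 on the Rb1KO arrays and 9.04, 8.94 and 8.87 on the TKO arrays on the probe set used, while its other 2 probe sets gave log2 fold changes of -0.07 and 0.13 below or near background. Plagl1 was at least 14.1-fold higher on the first (adjusted p = 2.0e-06), a difference that rests on 1 probe set. The name of that probe set carries a suffix which marks that it may bind more than 1 transcript.

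The remaining programmes held few calls each. In lists of this size a count near or a little above the share of all genes (9.55%) is no result about the members. No member passed among 10 Myc and Max network genes, 14 Polycomb genes and 16 cholesterol synthesis genes, whose medians were 0.09, 0.02 and 0.37, where about 1 call each would stand at that share. Of 28 interferon response genes 2 were called higher and 1 lower (10.7%), with Ifit2, which binds foreign RNA, at 6.98, 5.21 and 6.57 on the Rb1KO arrays and 9.39, 9.56 and 10.26 on the TKO arrays and a log2 fold change of 3.48 ± 0.38 (SE), adjusted p = 2.0e-04. The groups of Ifit2 did not overlap. Of 15 MHC class I genes 2 were called lower (13.3%), among them Erap1, which trims peptides, at -0.97 ± 0.17. Of 24 glycolysis and one-carbon genes 2 were called higher and 1 lower (12.5%), with Slc1a5, a glutamine carrier, at 2.14 ± 0.24 and Shmt1, which moves carbon from serine, at -0.96 ± 0.16. A further probe set above background was not called for either gene, at 0.05 for Slc1a5 and 0.015 for Shmt1. Of 21 glutathione and NRF2 targets 3 were called higher (14.3%), with Gstm2, a glutathione transferase, at 2.59 ± 0.30. Of 20 cadherins and EMT factors 3 were called higher and 1 lower (20%), and Cldn1, a tight junction protein, was at least 4.43-fold lower (adjusted p = 8.7e-04).

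Sox2 stood out among 22 pluripotency and germline factors. This factor of stem and neural cells lay at 4.45, 5.54 and 4.32 on the Rb1KO arrays and 9.09, 9.18 and 8.58 on the TKO arrays, and its log2 fold change was 4.18 ± 0.46 (SE), adjusted p = 2.3e-04. The WT arrays had Sox2 at 4.77, 4.55 and 3.07. Every TKO value was far above every Rb1KO value, and 1 Rb1KO array was slightly above background. Nanog was the other member called higher, at 3.37, 3.02 and 3.16 on the Rb1KO arrays and 4.67, 4.02 and 4.50 on the TKO arrays, with a TKO mean below background. The share of the list called was 9.09%, near the 9.55% of all genes. Only 6 of the 22 members were above background in either group, so most of the list could not show a difference.

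The cells were checked against markers of fibroblasts and of other cell types, and in bulk RNA fewer cells of a type and less RNA per cell cannot be told apart. Of 15 fibroblast genes 14 were above background in either group. Of the 15, 3 were called higher, Col1a1, Col3a1 and Pdpn, and 1 lower (26.7%, against 9.55% of all genes). Col1a2, the most abundant, differed by a log2 fold change of -0.14, and the summed level of the list (log2 of the summed linear values) was 16.10 to 16.21 on Rb1KO arrays and 16.43 to 16.52 on TKO arrays. Thy1, a surface marker of fibroblasts and the lower member, lay at 5.94, 6.62 and 6.73 on the Rb1KO arrays and 4.80, 4.76 and 4.64 on the TKO arrays, against 11.10, 10.41 and 10.99 on the WT arrays. It was at background on every TKO array and at least 2.46-fold lower than in Rb1KO MEFs (adjusted p = 5.5e-04).

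Markers of other cells were at background in part. Both groups were at background for 5 of 17 neural, 9 of 16 macrophage, 8 of 15 endothelial, 8 of 15 epithelial, 8 of 16 muscle, 8 of 14 cartilage and bone, 3 of 10 adipocyte and 4 of 6 melanocyte markers. The shares called were 23.5% of neural, 12.5% of macrophage, 13.3% of endothelial and 6.67% of epithelial markers. They were 12.5% of muscle, 21.4% of cartilage and bone, 40% of adipocyte and 16.7% of melanocyte markers, against 9.55% of all genes. Neural markers held 1 higher and 3 lower members, and Map2, a microtubule protein of neurons, lay at 8.49, 8.24 and 8.04 on the Rb1KO arrays and 3.85, 3.41 and 3.66 on the TKO arrays, at least 8.72-fold lower in TKO MEFs. The WT arrays had Map2 at 10.28, 10.18 and 10.72, above both. The summed neural level was 11.21 to 11.77 on Rb1KO arrays and 11.23 to 11.70 on TKO arrays. Endothelial markers held Erg, a transcription factor of blood vessels, at least 7.22-fold higher, and Flt1, a VEGF receptor, lower by a log2 fold change of -1.90 ± 0.18 (SE), adjusted p = 7.5e-05. Their summed level was 11.22 to 11.32 on Rb1KO and 11.63 to 11.77 on TKO arrays. Mitf, a factor of melanocytes that other cells also make, rose by 1.97 ± 0.26, and the summed melanocyte level was 7.57 to 7.83 on Rb1KO and 8.32 to 9.28 on TKO arrays.

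Macrophage markers held 2 higher members, with Cd68, a lysosomal protein, at least 1.79-fold higher (adjusted p = 0.0093) and a summed level of 9.10 to 9.21 on Rb1KO and 9.37 to 9.46 on TKO arrays. Cartilage and bone markers held 1 higher and 2 lower members. Col11a1, the most abundant, was the higher one at a log2 fold change of 1.16, a call lost when some single arrays were left out. Acan, the large proteoglycan of cartilage, was at least 4.51-fold lower (adjusted p = 4.7e-05). Their summed level was 10.24 to 10.55 on Rb1KO and 10.09 to 10.67 on TKO arrays. Adipocyte markers held 2 of each, with a summed level of 11.29 to 11.94 on Rb1KO and 11.89 to 12.49 on TKO arrays. Fabp4, a fatty acid carrier, was at 3.53 on a probe set whose suffix marks that it may bind more than 1 transcript. Of the 4 probe sets of Fabp4 2 were above background, and these 2 were called higher. One without a suffix was at 0.04 and at background in both groups. Pparg, the master factor of fat cells, was at -1.50 ± 0.23. Epithelial markers held 1 lower member and muscle markers 2 higher ones, with summed levels of 9.50 to 9.82 and 9.44 to 10.12 on Rb1KO arrays and of 9.50 to 9.99 and 9.40 to 9.60 on TKO arrays. The most abundant neural, macrophage and endothelial markers, Ncam1, Cd14 and Cd34, had log2 fold changes of -1.24, 0.76 and 0.66. Those of the epithelial, muscle and adipocyte lists, Krt19, Acta1 and Scd1, were at 0.48, -0.91 and 0.33. The part of any of these markers in the differences above was not tested.

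The largest differences over all genes came from several of these groups and from genes in none of them. Mgp, an inhibitor of calcification, lay at 6.37, 7.16 and 5.62 on the Rb1KO arrays and 13.25, 13.47 and 13.42 on the TKO arrays, and its log2 fold change was 6.998 ± 0.29 (SE), adjusted p = 1.2e-07. The WT arrays had Mgp at 13.18, 13.59 and 13.22, close to the TKO level. Ccdc68 was at least 17.7-fold, Ndnf, a secreted factor, at least 39.1-fold and Rps4l, a relative of a ribosomal protein gene, at least 26.8-fold higher in TKO MEFs. Probes for a gene with near copies, such as Rps4l, may also bind those copies.

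Of the genes that fell, Sox11, a factor of neural and mesenchymal progenitors, lay at 10.12, 10.39 and 10.05 on the Rb1KO arrays and 3.35, 3.29 and 3.65 on the TKO arrays. Tac1, which encodes substance P, lay at 9.87, 9.17 and 9.96 on the Rb1KO arrays and 2.98, 3.004 and 3.001 on the TKO arrays. Both were at background on every TKO array, at least 33.2-fold and 23.2-fold lower, and Tac1 was also at background on the WT arrays while Sox11 lay there at 10.31, 10.54 and 8.96. Maoa, which breaks down monoamines, lay at 12, 11.58 and 11.99 on the Rb1KO arrays and 5.31, 5.07 and 5.33 on the TKO arrays, and its log2 fold change was -6.62 ± 0.47 (SE), adjusted p = 7.0e-06. Id4, an inhibitor of bHLH factors, had a log2 fold change of -4.85 ± 0.55 (SE), adjusted p = 2.8e-04. The named transcripts AW551984 and 3110039M20Rik were at least 20.9-fold and 34.8-fold lower, and the latter lay at 4.25, 3.74 and 3.58 on the WT arrays and at 9.14, 8.99 and 8.79 on the TKO-Ras arrays.

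Differences were also ordered along 2 chromosomes, seen after the values were known and given here as a description with no test. Over 507 genes of chromosome 15 above background the median log2 fold change was 0.29, 28.0% were called higher and 1.18% lower. On the 18 chromosomes other than 13 and 15 the medians ran from -0.10 to 0.06, with 4.77% to 11.9% called higher. Each array's median deviation from the mean of the 12 arrays over chromosome 15 was -0.058, -0.068 and -0.071 on the Rb1KO arrays, 0.235, 0.210 and 0.225 on the TKO arrays, 0, 0.042 and 0.031 on the TKO-Ras arrays and -0.090, -0.145 and -0.095 on the WT arrays. All 3 TKO arrays stood above all other arrays. Rspo2, Fbln1, Wnt10b and Igfbp6 of the groups above lie on chromosome 15.

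On chromosome 13 the 42 genes above background from Irx2 to Rasa1 had a median of -0.87, with 28 called lower and 1 higher, and 38 of the 42 had a negative log2 fold change. The other 415 genes of the chromosome had a median of -0.06. Over that stretch the median deviation of the arrays was 0.433, 0.512 and 0.414 in Rb1KO, -0.296, -0.327 and -0.383 in TKO, -0.318, -0.219 and -0.367 in TKO-Ras and 0.272, 0.171 and 0.299 in WT MEFs. The TKO and TKO-Ras arrays lay below 0 and the Rb1KO and WT arrays above it. Erap1 lies in the stretch. The number of gene copies was not measured, and its part in these differences was not tested.

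**Figure D5:**
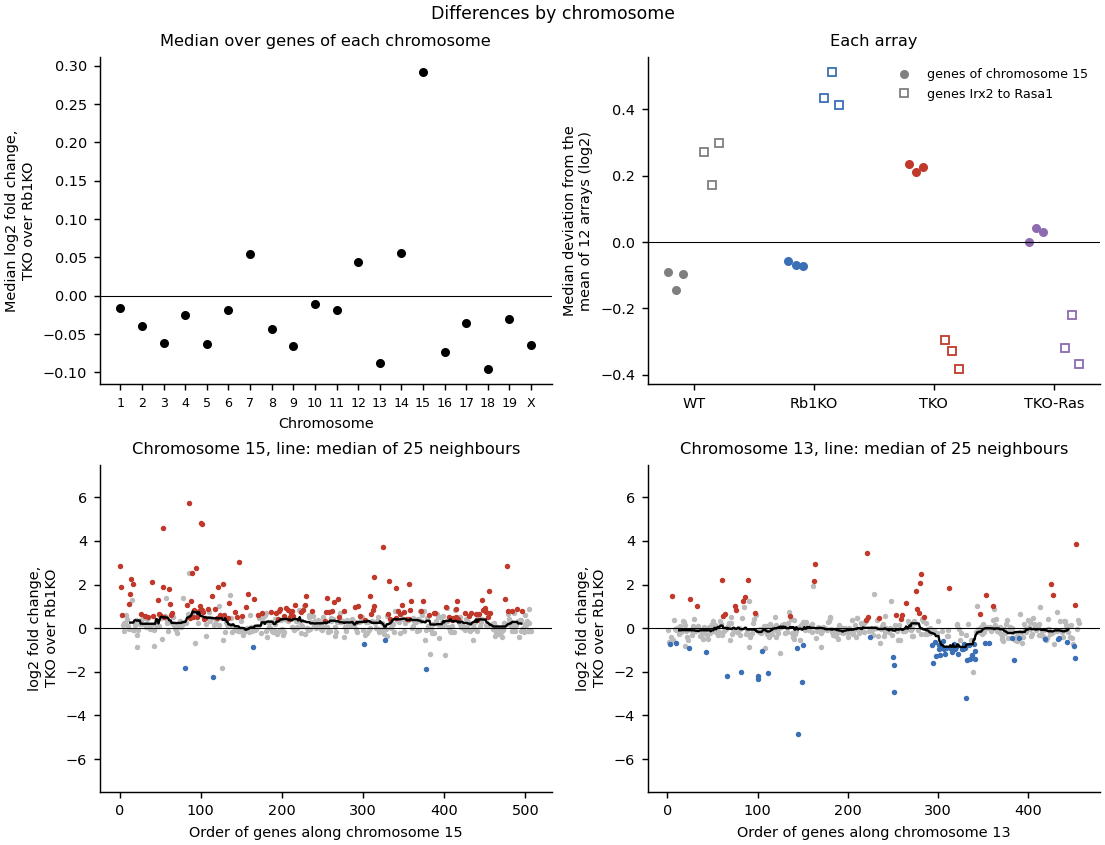
Upper left, the median log2 fold change of TKO over Rb1KO MEFs for each chromosome. Upper right, the median deviation of each array from the mean of the 12 arrays (log2) for genes of chromosome 15 (filled circles) and the genes from Irx2 to Rasa1 (open squares). Lower panels, the log2 fold change of each gene in order along chromosomes 15 and 13, red called higher, blue called lower, grey not called, with the running median of neighbours as a line, which stays above 0 along most of chromosome 15 and drops near the stretch of chromosome 13.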

How the data were processed

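RNA of 12 MEF samples was measured on Affymetrix MOE430 2.0 arrays. The authors normalized the scans with RMA in Partek Genomics Suite 6.5, and the deposited values are 1 log2 number per probe set and array, between 2.18 and 14.92. The arrays' genome build and detection calls are not given in the sources used here. The number of arrays, not a read depth, limits the precision.

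After 64 control probe sets were left out, 45037 remained, of which 34945 carried 1 gene symbol, 932 several and 9160 none in the platform annotation. They covered 18193 genes, and the brightest probe set by mean over all 12 arrays stood for a gene. RefSeq tables of GRCm38.p6 gave chromosomes, gene order and promoter windows (34741 probe sets matched by gene number).

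TKO was compared with Rb1KO in 1 limma 3.58.1 fit of all 12 arrays in R 4.3.3 (lmFit, eBayes, 8 residual degrees of freedom, 2-sided). Benjamini-Hochberg adjustment ran over 45037 probe sets, with calls under 0.05. Every adjusted p of a gene is from limma. A group with all 3 arrays at or below the background level of 5.13 gives only a lower bound of a fold, computed against that level. The arrays carry replicate numbers that do not pair the groups (same-number correlations of deviations -0.207, 0.128 and 0.153).

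The members and gene lists were chosen with earlier results of these data known. Genes were named by rule: Rb1, Rbl1, Rbl2, Meg3 and Dnmt1, up to 5 called members of a list in each direction, up to 2 abundant members that did not pass, and the 12 highest and 12 lowest log2 fold changes. Not all are given in the text, and Mcm3, Cdc6, Dlk1, Col5a2, Foxp1, Twist2, Six2, Wnt10b and the cell type markers beyond the most abundant were added after their values were seen. The fit was tested on simulated data. Alternatives were an intensity trend, contrasts without moderation, array weights, a replicate block, other scalings, filters and choices of probe set, and each TKO and Rb1KO array left out in turn, with WT replicate 3 left out as well after seeing the data. Scripts used Python 3.11.15, pandas 2.3.3, matplotlib 3.10.9, statmod 1.5.0 and the R package data.table (1.17.8).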

Additional observations from a re-analysis of the deposited data

How the results depend on the processing

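Against 1077 genes higher and 661 lower, array weights gave 1630 and 1205. With 1 array left out, the higher genes numbered 714 to 1535, the lower genes 401 to 1068, the higher genes of 2-fold or more 440 to 640 and the lower ones 213 to 311; the fewest higher genes came without Rb1KO replicate 3, the fewest lower genes without TKO replicate 2 and the most lower genes without WT replicate 3, which was left out after seeing the data. With the replicate number as a replicate block the counts were 1022 higher, 662 lower, 533 higher by 2-fold or more and 259 lower by 2-fold or more, and the numbers mark no shared source in the labels. The other alternatives moved no count of all genes by over 1.5 times. Counts within lists moved more. Contrasts without moderation called 6 higher members of the p53 list against 12 and 2 of the chemokine list against 7. They called 5 of the Wnt list against 10 and 5 of the limb list against 9. Higher collagens numbered 5 against 6, and the Hox counts stayed at 10 higher and 2 lower. Of the named genes, Plagl1 changed sign with probe sets without a suffix (-0.071) and Mcm3 came to 0.00 with arrays centred on their median, and over all named genes and alternatives 2141 values kept their direction and their side of the threshold, 63 lost the call and 10 gained it. The median of chromosome 15 ran from 0.224 to 0.331 over the alternatives, and that of the genes from Irx2 to Rasa1 was -0.736 with the mean of all probe sets. With a stricter background of 5.82, the bound for Cxcl5 was 121-fold and no fold could be given for Rbl2. The cause of these shifts was not tested. Low signal limits genes near background, where only bounds can be given.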

Other observations

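Some called genes lay beside each other. Among genes above background in either group, in RefSeq order, 41 runs of 3 or more neighbours were called in the same direction. Of these 30 were higher and 11 lower in TKO MEFs. The number of runs that the share of genes called would give by itself was not computed. Several higher runs, such as Selenop to Fbxo4 and Fkbp11 to Prkag1, lie on chromosome 15. Several lower runs, such as Irx2 to Clptm1l and Tmem161b to Rasa1, lie in the stretch of chromosome 13. The runs therefore restate in part the differences by chromosome given above. Measured genes at background were skipped, so members of a run need not be direct neighbours. The runs held 152 genes, and the 1738 genes called include some at background that could not join a run. The longest run held 8 genes, from Med30 to Mrpl13 on chromosome 15. Other runs joined genes of related function, such as Cxcl5, Ppbp and Cxcl1, the proteases Mmp13, Mmp3 and Mmp10, and Dlx6os1, Dlx6 and Dlx5, while the run from Shox2 to Rarres1 joined 6 neighbours of mixed function that were all lower. These are descriptions with no test, and neighbours can share probes, copies or regulation, none of which was tested.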
